A study of Mus musculus with 2 samples.

Results

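The clustered histone genes are the replication-dependent core and linker histone genes of the mouse histone clusters. They were taken as every gene whose symbol begins with Hist1h, Hist2h, Hist3h or Hist4h and that has at least 1 protein-coding transcript. The rule found 67 genes among the 55536 mouse genes of the deposited tables, of which 21901 have a protein-coding transcript. It left out 3 symbols with no coding transcript, Hist1h2aj, Hist1h2al and Hist3h2bb-ps. Of the 67 genes, 54 lie in the Hist1 cluster on chromosome 13, 10 in Hist2 on chromosome 3, 2 in Hist3 on chromosome 11 and 1 in Hist4 on chromosome 6. By histone type, 6 encode the linker histone H1, 18 encode H2A, 18 H2B, 12 H3 and 13 H4.

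The samples were primary macrophages grown from bone marrow of C57BL/6J mice and stimulated with lipid A, the membrane-anchoring part of bacterial lipopolysaccharide, at 100 ng/ml for 20 min. RNA of the nucleoplasmic fraction was sequenced after removal of ribosomal RNA, as 2 biological replicates with the same donor record. The RNA input was 1 µg for replicate 1 and 500 ng for replicate 2. Both libraries form 1 group, so levels, shares and their spread between libraries are given, with no comparison of conditions and no p-value. Sex and age of the animals were not recorded, and whether the replicates came from separate animals or cultures is not stated, so that the spread may be technical.

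Histone proteins package DNA into nucleosomes, in which DNA winds around an octamer of H2A, H2B, H3 and H4 and H1 binds the linker DNA. Cells need most of these proteins while they copy their DNA, and the clustered genes are known for mRNAs that accumulate in S phase and fall away at its end. The genes normally have no introns and their mRNAs no poly(A) tail: the transcript is cut just after a conserved stem-loop, which the stem-loop binding protein SLBP and the U7 small nuclear ribonucleoprotein recognise. Differentiated or resting cells are known to use replacement histone genes and, for some clustered genes, a polyadenylated form that runs on past the stem-loop.

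Library totals over mouse genes were 18194781 and 18667499 counts in replicates 1 and 2, after the authors' expected counts had been rounded to whole numbers. The macrophage label was checked against markers. All 10 macrophage genes, among them Lyz2, Csf1r and Adgre1, were at 1 TPM or more in both libraries, with a median of 303 and 284 TPM in replicates 1 and 2. TPM is a transcript level scaled to transcript length and to library size. Marker lists of neutrophils and their precursors, B cells, T and NK cells, erythroid cells and stromal cells had medians of 0 to 0.21 TPM. S100a9 was the highest of these genes, at 1.55 and 0.82 TPM. The deposited tables hold a second quantification, which put the T cell gene Cd3d at 2.90 and 9.43 TPM. By the first, Cd3d was at 0.04 and 0.03 TPM. Fewer cells of a type and less RNA per cell cannot be told apart in such bulk RNA.

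The stem-loop that marks these mRNAs could be located in the annotated transcripts (GENCODE M21, the release named in the deposited notes). The pattern searched was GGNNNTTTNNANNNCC with its 6 outer positions on each side able to pair, G with T allowed. It was found in 46 of the members' 72 coding transcripts, or 63.9%, against 154 of all 58797 mouse coding transcripts, or 0.262%. The 154 include those of the members. By gene, 44 of the 67 members held it, and so did 62 genes that are no member, so the pattern is not particular to the members. The sequences below show the stem-loop in capitals with 5 bases on either side, 5′ to 3′ on the sense strand, for the members with the highest levels of each type among those that hold the pattern, and for Hist1h4i as another H4 form. The model of Hist1h4m ends 3 bases after its stem-loop.

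Hist1h1c: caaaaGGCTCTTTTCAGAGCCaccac
Hist3h2a: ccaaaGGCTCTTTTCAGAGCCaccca
Hist1h2bg: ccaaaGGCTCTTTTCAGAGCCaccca
Hist2h3c2: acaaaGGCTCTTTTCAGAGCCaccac
Hist1h4m: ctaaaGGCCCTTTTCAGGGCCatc
Hist1h4i: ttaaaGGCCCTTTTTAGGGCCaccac

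The stem differed between H4 genes and the other types, and some of the forms below differ only in the loop. The form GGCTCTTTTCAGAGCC was present in 26 members, of H1, H2A, H2B and H3 and of no H4 gene. The form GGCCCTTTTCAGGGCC was present in 7 members, all of them H4. The remaining forms were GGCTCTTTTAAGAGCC in 6 members, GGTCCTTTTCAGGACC in 2 H4 genes, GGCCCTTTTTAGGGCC in 2 H4 genes and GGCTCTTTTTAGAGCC in Hist2h2ac. A transcript without a match was often one whose model stops early: among the 22 coding transcripts of up to 1000 bases with no match, 13 ran exactly from a start codon to a stop codon. The model of Hist1h1a stops inside its stem-loop, as its last 30 bases show.

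Hist1h1a: tataaataacccaacggctcttttcagagc

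The clustered histone genes were low but measurable in this nuclear RNA. Together they took 2487 counts in replicate 1, or 0.0137% of all gene counts (95% Clopper-Pearson interval 0.0131% to 0.0142%), and 3232 counts in replicate 2, or 0.0173% (0.0167% to 0.0179%). The mean share was 0.0155% ± 0.00258 (SD, n = 2). Intervals cover counting error only, since reads that carry no molecular identifier need not be separate molecules, and the intervals of the libraries do not overlap. Without the 7 members that overlap another gene on the same strand, a choice made after seeing the data, the mean share was 0.00958%.

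The median member was at 1.47 and 1.20 TPM in replicates 1 and 2, or 1.335 ± 0.191 TPM (mean ± SD, n = 2). The median of all coding genes was 0.62 and 0.50 TPM. At 1 TPM or more in both libraries stood 37 of the 67 members, or 55.2%, against 45.2% of coding genes. The lower bound of the authors' credibility interval was at 1 TPM or more for fewer members, 21 in replicate 1 and 26 in replicate 2. No such share of coding genes is given here. In both libraries 21 members were below 1 TPM. Only Hist3h2a and Hist2h2aa2 reached 10 TPM in both. The second quantification in the deposited tables put 18 members, or 26.9%, at 1 TPM or more in both libraries, against 47.2% of coding genes. Its median over members was 0.822 TPM as a mean of both libraries, and its median over coding genes 1.09 TPM. The median member thus lay above the median coding gene by the first quantification and below it by the second.

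**Figure D1:**
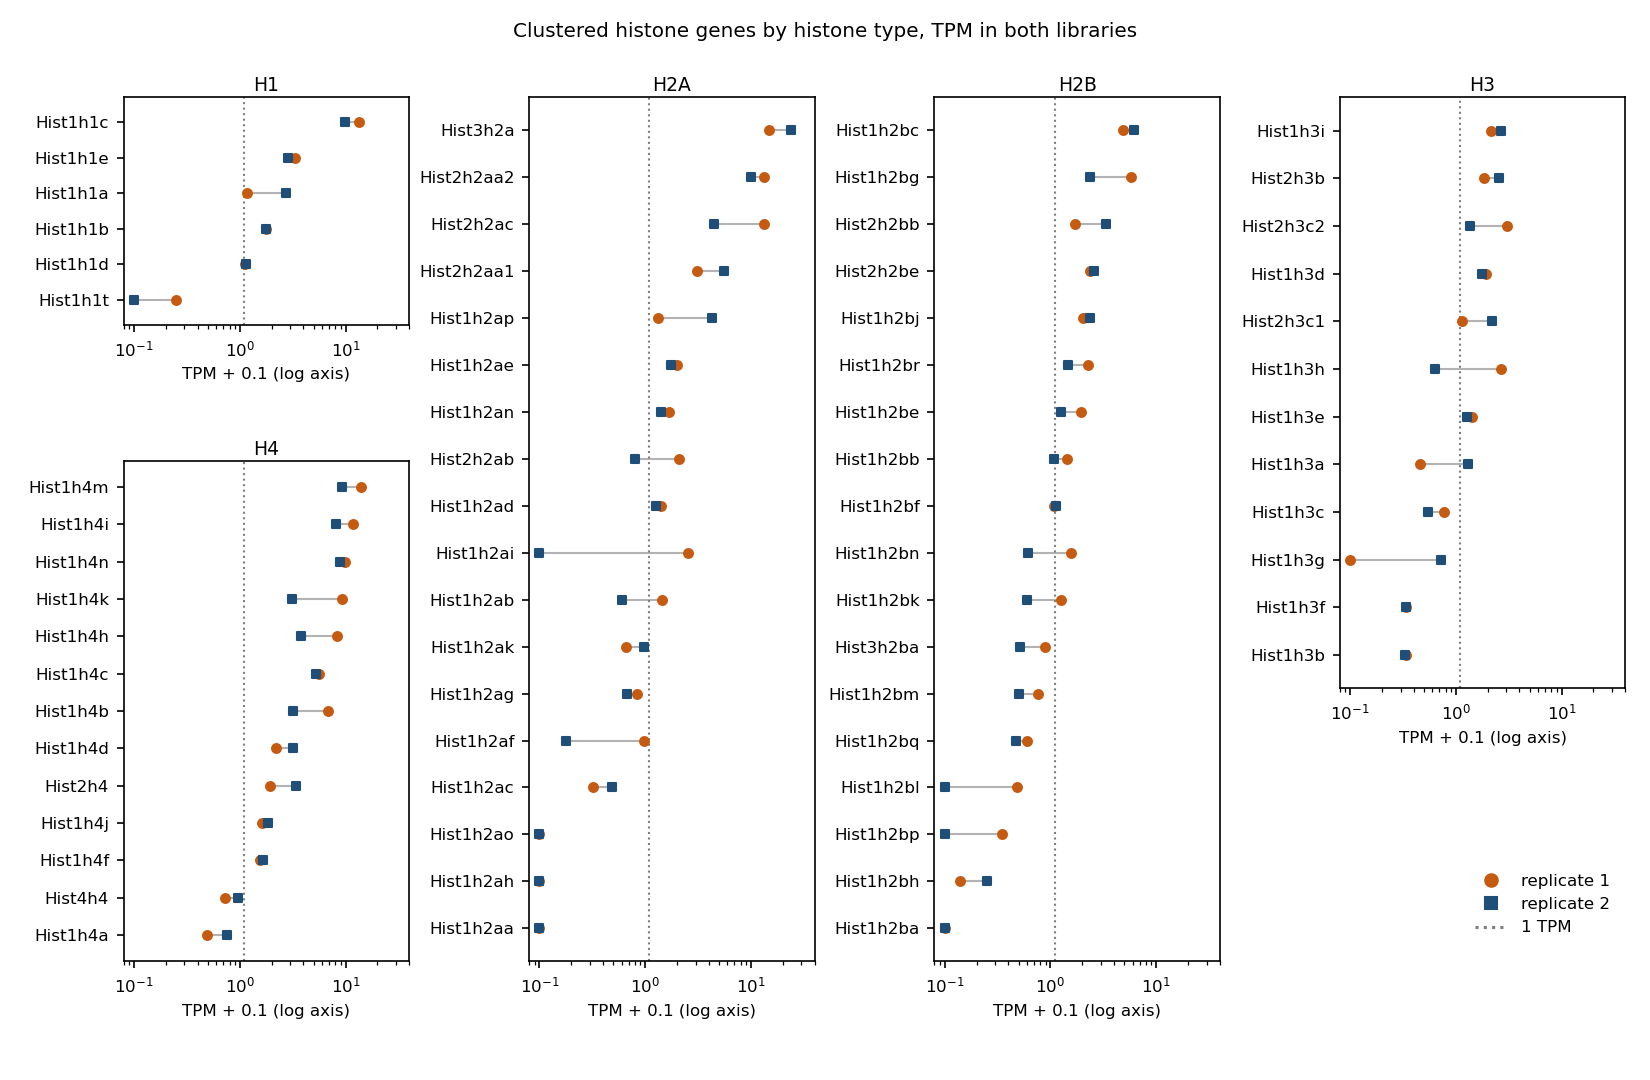
TPM of all 67 clustered histone genes in replicate 1 (orange circles) and replicate 2 (blue squares), grouped by histone type and sorted by mean TPM, on a log axis with 0.1 TPM added so that zeros can be drawn. A dotted line marks 1 TPM. By the first quantification, drawn here, 11 of the 13 H4 genes reach it in both libraries, against 8 of 18 H2A genes and 7 of 18 H2B genes. Of all coding genes 45.2% do.

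Linker histone H1 genes were led by Hist1h1c, which encodes a main somatic H1 subtype. Hist1h1c (chr13:23738808-23740367, plus strand) had 340 counts and 13.2 TPM in replicate 1 and 311 counts and 9.84 TPM in replicate 2, a mean of 11.5 ± 2.40 TPM (SD, n = 2). Both libraries placed it first among the 6 H1 genes. Hist1h1e, whose span overlaps Hist1h2be on the same strand, followed with 3.21 and 2.75 TPM in replicates 1 and 2, and Hist1h1b was at 1.67 and 1.66 TPM. Hist1h1a had 11 counts and 1.08 TPM in replicate 1 and 33 counts and 2.62 TPM in replicate 2. Hist1h1d had more counts than these, 138 and 174, but its only annotated transcript is 7425 bases long, and its level per length was 1.01 and 1.04 TPM. The testis linker histone gene Hist1h1t had 2 counts in replicate 1 and 0 in replicate 2, which allows up to 3 counts, or 0.161 CPM (counts scaled to library size).

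H2A genes, whose proteins pair with H2B, held the largest share of counts, and most of it belonged to 1 gene. Hist3h2a (chr11:58954685-58956830, plus strand) had 542 counts and 14.7 TPM in replicate 1 and 1072 counts and 23.8 TPM in replicate 2. It alone took 21.8% and 33.2% of all clustered histone counts and was the highest member in both libraries. Its span overlaps Trim17, a ubiquitin ligase gene, on the same strand, and 32.1% of its 31-base words also occur there. Trim17 had 163 counts in replicate 1 and 330 in replicate 2, so that both genes of this overlap were higher in replicate 2. How reads of the shared stretch were divided is an estimate of the authors' program.

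The Hist2 cluster supplied the next H2A genes. Hist2h2aa2 was at 13.2 and 10.03 TPM in replicates 1 and 2, and its near-copy Hist2h2aa1 at 3 and 5.44 TPM. Summed, the pair had 16.2 and 15.5 TPM, and the log2 ratio of its summed counts was 0.36 (interval −0.02 to 0.76). Every 31-base word of both genes is shared with other genes, so that how counts were divided between them is uncertain. Hist2h2ac was at 13.1 TPM (78 counts) in replicate 1 and 4.40 TPM (33 counts) in replicate 2, and its libraries lay far apart. Hist2h2ab had 9 and 4 counts, at 2.00 and 0.70 TPM.

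Most H2A genes of the Hist1 cluster were low. Hist1h2ap was at 1.21 TPM (6 counts) in replicate 1 and 4.17 TPM (28 counts) in replicate 2, and Hist1h2ae at 1.92 and 1.64 TPM. Hist1h2ai had 2.43 TPM on 9 counts in replicate 1 and 0 counts in replicate 2, whereas the second quantification gave it 14.2 and 21.1 estimated counts, and 92.0% of its words are shared with other genes. Hist1h2ac, the lowest H2A gene with a count, was at 0.22 and 0.39 TPM. Hist1h2aa, the gene of testis H2A, Hist1h2ah and Hist1h2ao had 0 counts in both libraries. For Hist1h2ao this need not mean absence, because 93.8% of its words occur in Hist1h2ap and the second quantification gave it 3.55 and 8.61 estimated counts. The median H2A gene was at 1.325 and 0.79 TPM in replicates 1 and 2.

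H2B genes were led by Hist1h2bc and Hist1h2bg. Hist1h2bc (chr13:23684199-23692908, plus strand) had 85 counts and 4.74 TPM in replicate 1 and 135 counts and 6.08 TPM in replicate 2. Hist1h2bg (chr13:23571396-23572013, plus strand) went the other way between the libraries, at 5.73 and 2.29 TPM in replicates 1 and 2. Hist2h2bb was at 1.62 and 3.27 TPM on 5 and 14 counts. Hist2h2be, whose annotated transcript is 2620 bases long, had 104 and 138 counts and 2.27 and 2.46 TPM. Hist1h2be was at 1.85 and 1.16 TPM, Hist1h2br at 2.14 and 1.38 TPM and Hist3h2ba at 0.78 and 0.41 TPM. Hist1h2ba, the gene of testis H2B, had 0 counts in both libraries, and the lowest H2B gene with a count was Hist1h2bh at 0.04 and 0.15 TPM. By the second quantification Hist1h2bh was at 0.22 and 0.55 TPM, and Hist1h2bp and Hist1h2bl, each at 0 in replicate 2, lay below it.

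H3 genes were the lowest of the core types in counts, with 170 in replicate 1 and 222 in replicate 2. Hist1h3i was the highest by mean level at 2.03 and 2.57 TPM on 8 and 13 counts, followed by Hist2h3b at 1.75 and 2.45 TPM and Hist2h3c2 at 2.92 and 1.26 TPM. These 3 do not differ beyond the spread between libraries. Hist1h3d had 36 and 41 counts, at 1.83 and 1.68 TPM, and Hist1h3e 16 and 17 counts, at 1.33 and 1.18 TPM. In genes with few counts the libraries could disagree: Hist1h3h was at 2.55 and 0.54 TPM, and Hist1h3g at 0 and 0.62 TPM. Hist1h3b was the lowest, at 0.24 and 0.23 TPM in replicates 1 and 2.

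H4 genes, which all encode nearly the same protein, were at 1 TPM or more in most cases. Hist1h4m (chr13:21811746-21812147, plus strand) was at 13.8 and 9.10 TPM in replicates 1 and 2, Hist1h4i at 11.6 and 7.98 TPM, and Hist1h4n at 9.81 and 8.74 TPM. The order of these 3 rests on differences smaller than the spread between libraries. Hist1h4k, Hist1h4h and Hist1h4b had 9.13, 8.18 and 6.69 TPM in replicate 1 and 3.02, 3.66 and 3.11 TPM in replicate 2. Hist1h4c differed less between the libraries in TPM, at 5.55 and 5.18 TPM on 65 and 75 counts. Hist1h4d, Hist1h4j and Hist1h4f lay between 1.44 and 3.12 TPM. Of the 13 H4 genes, 11 stood at 1 TPM or above in both libraries, where 45.2% of coding genes did. The type's median was 5.55 and 3.12 TPM. Below 1 TPM were Hist4h4, at 0.63 and 0.86 TPM, and Hist1h4a, at 0.39 and 0.65 TPM. By the second quantification Hist1h4d, Hist1h4f, Hist1h4j and Hist2h4 were below 1 TPM too in replicate 1, at 0.45 to 0.79 TPM. H4 genes are short, and a few of them share nearly all of their words: 91.7% for Hist1h4m and 87.5% for Hist1h4n.

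By type, H2A genes held 32.4% of clustered histone counts in replicate 1 and 41.2% in replicate 2 (36.8% ± 6.21, mean ± SD, n = 2). H1 genes held 24.6% and 20.1%, H4 genes 20.0% and 17.8%, H2B genes 16.1% and 14.1%, and H3 genes 6.84% and 6.87%. H2A stood above H2B and H3 in both libraries, but its place above H2B rested on Hist3h2a. That gene held 542 of 805 H2A counts in replicate 1 and 1072 of 1330 in replicate 2. The remaining H2A counts were fewer than the H2B counts, 401 and 457. Counts favour long transcripts, and in TPM the order changed: H4 genes then held 37.4% and 32.0%, H2A genes 29.99% and 33.8%, and H1 genes 10.5% and 11.0%.

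Most counts fell on genes whose annotated transcript does not end at the stem-loop. A transcript was called long where it ran more than 50 bases past the stem-loop, or held no match and was over 1000 bases. The 34 long transcripts, of 29 genes, took 82.1% of the members' counts in replicate 1 and 84.9% in replicate 2 (83.5% ± 2.02, mean ± SD, n = 2). Without Hist3h2a the shares were 77.1% and 77.5%. Length weighs heavily here: in TPM the long transcripts held 49.6% and 53.3%. Of all members, 62 have only 1 annotated transcript, so the share says which genes the reads fell on under this annotation. Where along a transcript the reads lay was not measured, and reads past the stem-loop cannot be told from reads before it.

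The types differed in this share. Long transcripts took 95.4% and 91.7% of H1 counts, 80.6% and 86.1% of H2A counts, 88.1% and 88.5% of H2B counts and 82.8% and 79.1% of H3 counts. H4 was the lowest, with 63.0% in replicate 1 and 74.1% in replicate 2. The median member with only long transcripts had 37 and 41 counts, and the median member with no long transcript had 6.08 and 6.16 expected counts. Per length the same groups were closer, at 1.85 and 1.68 TPM for the 27 members with only long transcripts and 1.335 and 0.995 TPM for the 38 members with none.

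**Figure D2:**
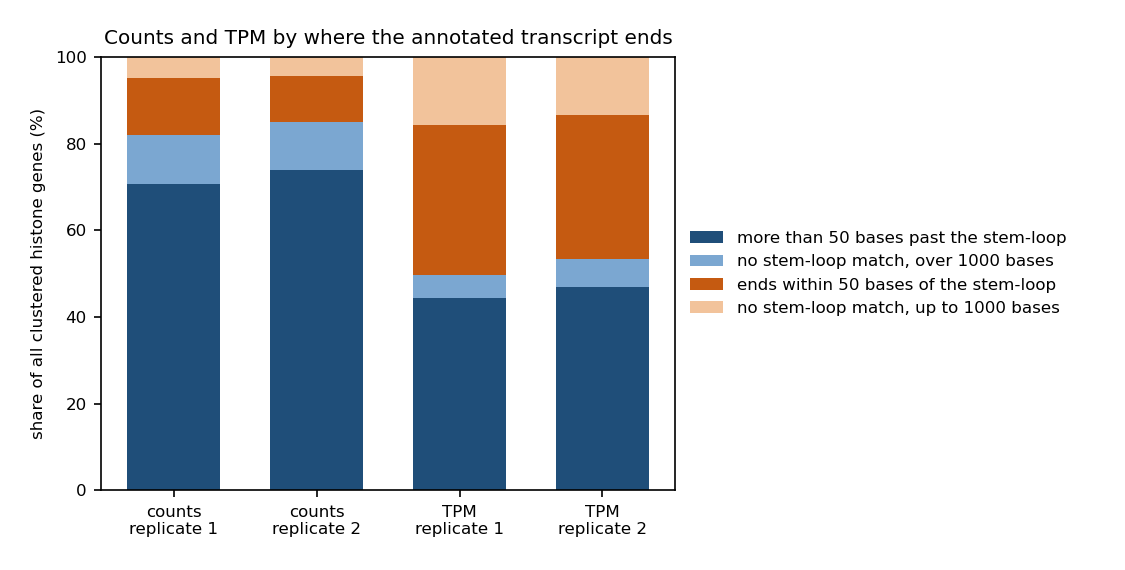
Share of all clustered histone counts (left pair of bars) and TPM (right pair), in percent, by where the annotated transcript ends, for replicates 1 and 2. Blue shades are the long classes and orange shades the others; blue reaches 82.1% and 84.9% of counts but 49.6% and 53.3% of TPM.

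A poly(A) signal hexamer, AATAAA or ATTAAA, stood in the last 50 bases of 16 of the members' 31 long coding transcripts, or 51.6%, and of 3 of the other 41, or 7.32%. Among all mouse coding transcripts the share was 50.2%. The last 30 bases of 3 long members follow, with the hexamer in capitals. Hist1h1c ends 840 bases beyond the stem-loop printed above, Hist2h2be has no stem-loop match, and Hist4h4 runs on for 2445 bases.

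Hist1h1c: ttctAATAAAaagcgtttagttttcattca
Hist2h2be: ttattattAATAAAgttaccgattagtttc
Hist4h4: agaagatgctagaggagatgaAATAAAtac

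Position in the clusters was described with genes split into blocks wherever 100 kb or more held no member. The Hist2 block on chromosome 3 (chr3:96219865-96270132) holds 10 genes in 50.3 kb. Of these, 9 were at 1 TPM or more in both libraries, where 45.2% of coding genes were. The median of the block was 2.135 and 2.865 TPM in replicates 1 and 2. By the second quantification Hist2h2aa1, Hist2h2bb, Hist2h3b and Hist2h4 were at 0.37 to 0.79 TPM in replicate 1. Hist2h3c1 was then at 0 TPM in both libraries. The Hist1 cluster fell into 4 blocks. The block of 29 genes (chr13:23531050-23764406) had 16 at 1 TPM in both and took 1097 and 1188 counts. The block of 18 genes (chr13:21715763-21837530) had 9 at 1 TPM in both, with 242 and 251 counts. The block of 5 genes had 2, and the pair of testis genes Hist1h2ba and Hist1h2aa had 0 counts.

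Many H2A and H2B genes sit head to head, with a shared stretch between their starts. There were 12 such pairs, all of an H2A with an H2B gene, 176 to 306 bases apart. Both genes were at 1 TPM in both libraries in 3 pairs, 1 gene was in 4 pairs and neither was in 5. Partners need not match in level: beside Hist1h2bc, at 4.74 and 6.08 TPM, stood Hist1h2ac at 0.22 and 0.39 TPM, across 251 bases. Hist2h2ac and Hist2h2be, 239 bases apart, differed in opposite directions between the libraries.

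Promoter windows of 250 bases before to 50 bases after the start were found in RefSeq (build GRCm38.p6) for 61 of the 67 members. CCAAT, the letters bound by the NF-Y factor, occurred on either strand in all 49 windows of H1, H2A, H2B and H3 genes and in 3 of 12 H4 windows, against 37.4% of all 32851 promoter windows. TATAAA occurred in 35 of 61 windows, or 57.4%, against 13.6% of all. The octamer ATTTGCAT, the letters of Oct-1 binding sites, occurred in 7 H2A and 6 H2B windows and in no other type, against 1.74% of all windows; where genes lie head to head their windows can overlap and share a match. GGGCGG occurred in 9 of 12 H4 windows and in 23 of all 61, or 37.7%, against 35.7% of all. The motifs were counted separately and may overlap, and a match is a description of the sequence, not a site shown to be used.

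The windows of the highest member of each type with a RefSeq window follow, 5′ to 3′ on the gene's strand, with matches of the 4 motifs on either strand in capitals. They show CCAAT or its reverse complement ATTGG in the H1, H2A, H2B and H3 windows and TATAAA without CCAAT in the H4 window. The regions are chr13:23738557-23738856 for Hist1h1c, chr11:58954435-58954734 for Hist3h2a, chr13:23571150-23571449 for Hist1h2bg, chr13:21783348-21783647 (minus strand) for Hist1h3i and chr13:21811496-21811795 for Hist1h4m.

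Hist1h1c: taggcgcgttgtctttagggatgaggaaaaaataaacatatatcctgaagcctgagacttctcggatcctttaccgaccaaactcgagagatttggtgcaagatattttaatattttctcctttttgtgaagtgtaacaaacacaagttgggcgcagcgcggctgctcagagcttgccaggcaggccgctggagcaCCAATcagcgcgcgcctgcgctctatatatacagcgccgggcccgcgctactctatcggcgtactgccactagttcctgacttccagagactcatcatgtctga
Hist3h2a: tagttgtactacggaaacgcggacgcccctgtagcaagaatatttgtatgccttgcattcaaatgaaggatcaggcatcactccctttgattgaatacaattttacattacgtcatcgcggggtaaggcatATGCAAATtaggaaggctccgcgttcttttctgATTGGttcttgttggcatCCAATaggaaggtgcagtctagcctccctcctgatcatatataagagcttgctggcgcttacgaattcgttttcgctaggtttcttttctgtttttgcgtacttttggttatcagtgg
Hist1h2bg: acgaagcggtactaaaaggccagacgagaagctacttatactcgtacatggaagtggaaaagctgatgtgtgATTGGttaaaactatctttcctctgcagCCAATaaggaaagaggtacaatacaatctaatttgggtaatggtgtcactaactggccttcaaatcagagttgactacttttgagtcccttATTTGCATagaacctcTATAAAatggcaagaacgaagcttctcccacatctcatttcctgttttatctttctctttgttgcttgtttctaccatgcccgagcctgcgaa
Hist1h3i: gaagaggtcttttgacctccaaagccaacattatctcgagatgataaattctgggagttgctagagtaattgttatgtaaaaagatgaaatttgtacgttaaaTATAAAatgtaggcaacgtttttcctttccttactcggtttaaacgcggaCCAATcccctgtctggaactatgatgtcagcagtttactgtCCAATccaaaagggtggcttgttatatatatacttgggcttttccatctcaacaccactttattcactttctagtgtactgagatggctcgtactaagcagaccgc
Hist1h4m: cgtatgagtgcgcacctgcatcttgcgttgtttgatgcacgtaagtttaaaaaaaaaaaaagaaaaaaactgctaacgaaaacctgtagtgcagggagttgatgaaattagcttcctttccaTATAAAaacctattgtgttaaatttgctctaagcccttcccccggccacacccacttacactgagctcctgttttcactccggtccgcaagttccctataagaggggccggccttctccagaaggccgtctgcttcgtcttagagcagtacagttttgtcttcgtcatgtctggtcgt

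The libraries were compared gene by gene as the log2 ratio of replicate 2 over replicate 1, on counts scaled by edgeR's TMM factors with 0.5 added. A mean scaled count of at least 10 was required, which 35 of the 67 members met and 32 did not. A gene was called apart where the ratio was over 2-fold and its exact 95% counting interval did not hold 0. By this measure 6 members were higher in replicate 2, where 4.36% of all 15557 genes were, and 1 was lower, where 3.66% of genes were. These are differences between 2 libraries of the same group, and RNA input differed between them too (500 ng in replicate 2, 1 µg in replicate 1); its part in the result was not tested.

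The members higher in replicate 2 were Hist1h2ap, with a log2 ratio of 2.19 (interval 0.98 to 3.84), Hist1h1a with 1.60 (0.62 to 2.78), Hist2h3c1 with 1.37 (0.77 to 2.02), Hist2h2aa1 with 1.20 (0.46 to 2.01), Hist2h4 with 1.18 (0.69 to 1.70) and Hist3h2a with 1.04 (0.89 to 1.20). Hist2h2ac was the lower one, with −1.17 (−1.82 to −0.58). Hist1h2ap had only 6 and 28 counts, and 93.4% of its words occur in Hist1h2ao. Counting intervals leave out how reads were divided between such genes. The authors' credibility intervals for TPM overlap between the libraries for Hist1h2ap (0.27 to 2.23 and 1.60 to 5.19). So do those of Hist1h1a, which only just meet (0.52 to 1.75 and 1.73 to 3.46), and those of Hist2h3c1 and Hist2h2aa1. Those of Hist2h4, Hist3h2a and Hist2h2ac do not overlap. The scales differ: the median log2 ratio of all genes was −0.35 on TPM and 0.0039 on scaled counts. Overlap in TPM is thus no test of the ratios of scaled counts. Hist2h4, with 50 counts and 1.85 TPM in replicate 1 and 109 counts and 3.29 TPM in replicate 2, shares only 2.56% of its words with other genes. Hist2h3c1, Hist2h2aa1 and Hist3h2a overlap another gene on the same strand, and among the members with no such overlap 3 were higher and 1 lower. The gene model Gm20634 overlaps Hist2h3c1 and Hist2h2aa1 and had 232 counts in replicate 1 and 462 in replicate 2. Summed with their near-copies, Hist2h3c1 and Hist2h3c2 together had a log2 ratio of 0.49 (0.05 to 0.94) and Hist2h2aa1 and Hist2h2aa2 together 0.36, so that neither pair was over 2-fold apart.

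Over the 35 genes the median log2 ratio was 0.28, against 0.0039 over all genes, and the median size of the ratio was 0.60 against 0.31. In 25 members the ratio was above 0 and in 10 below. Among the smaller ratios on this scale were Hist1h1c, with −0.07 (−0.30 to 0.16), Hist1h4i with −0.16 (−0.56 to 0.24) and Hist1h4m with −0.18 (−0.81 to 0.43). In TPM each of these genes was lower in replicate 2. Intervals of 20 of the 35 held 0. On ratios of TPM the members' median was −0.10 and that of all genes −0.35, so the members stood above all genes by a similar amount on both scales, while 2 members were then called higher, where 1.64% of genes were, and 6 lower, where 9.69% were. Summed over the members, the log2 ratio of counts was 0.44, and 0.21 without Hist3h2a.

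**Figure D3:**
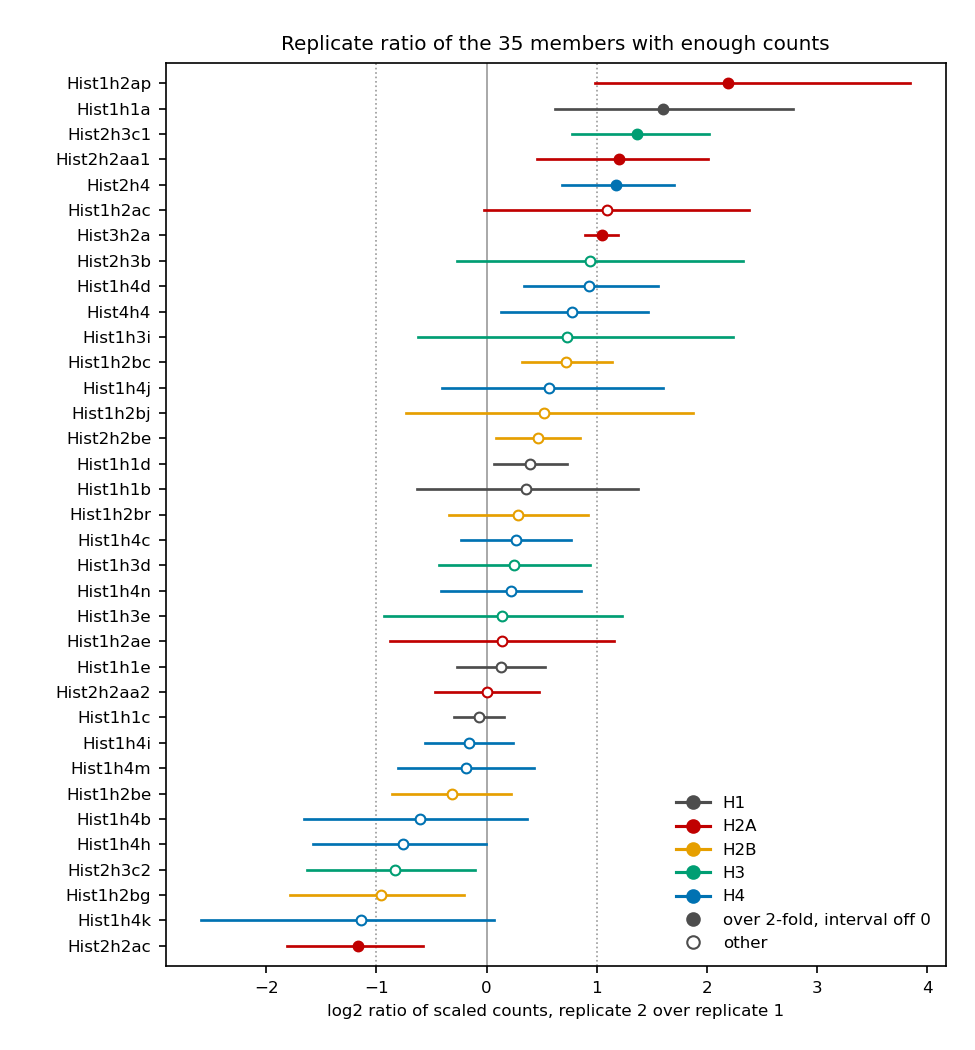
Log2 ratio of scaled counts, replicate 2 over replicate 1, with exact 95% counting intervals, for the 35 members that reached a mean scaled count of 10, coloured by histone type. Filled points are over 2-fold apart with an interval that does not hold 0: 6 to the right, from Hist3h2a at 1.04 to Hist1h2ap at 2.19, and Hist2h2ac to the left at −1.17.

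The deposited tables hold a second quantification of the same libraries, and it placed some members differently. Where both tables gave a gene at least 1 TPM, the median log2 ratio of the second TPM over the first was −1.40 for members and −0.95 for all genes in replicate 1, and −0.50 for members and −0.04 for all genes in replicate 2. After these all-gene medians were taken out and 0.1 TPM added, genes at 1 TPM or more in either table were compared, a choice made after seeing the data. In replicate 1, 0 of 46 members were over 2-fold higher by the second quantification, where 37.2% of genes were, and 3 were over 2-fold lower, where 1.40% were. In replicate 2, 3 of 43 members were over 2-fold higher, where 38.4% of genes were, and 4 lower, where 1.07% were. The members' medians on this scale were −0.44 and −0.41, and those of all genes 0.35 and 0.40. The medians taken out came from genes at 1 TPM or more by both quantifications, so this wider set is not centred on 0. On uncentred counts, members with a mean count of at least 10 by both had a median log2 ratio of 0.43. The median of all genes on counts was 0.61. Among the members that differed most in counts, Hist4h4 had 32 and 53 by the first quantification and 104 and 256 by the second. Only 14.3% of the words of Hist4h4 occur in other genes. Hist1h4k had 19 and 8 counts by the first and 44.6 and 39.3 by the second. Hist2h3c1 had 32 and 80 counts by the first and 0 by the second in both libraries, and all of its words are shared with Gm20634.

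The members' likeness to one another and their overlap with other genes limit such values. More than 50% of the 31-base words of 41 members occur in other genes too, read on either strand, and under 10% for only 6. For some members the gene that shares most is a model on the other strand, such as Gm20628 for Hist2h2bb and Hist2h3b. On the same strand 7 members overlap another gene and on the other strand 21. No source used here says whether strand was used in counting, so overlapping genes cannot be told apart with certainty. Most of the overlapping models on the other strand had 0 counts; those with more than 2 were Gm20633, with 104 and 177 counts, and Gm20632, with 109 and 174, which lie over Hist2h2aa1 and Hist2h2aa2, and Gm20628, with 36 and 65, over Hist2h2bb and Hist2h3b.

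The clustered genes had lower levels than the replacement histone genes, most of which are known for expression outside S phase and polyadenylated mRNAs. The median was 1.47 and 1.20 TPM for clustered genes, against 6.30 and 5.95 TPM for the 12 replacement genes, of which 9 reached 1 TPM in both libraries. H3f3b, a gene of histone H3.3, was at 556 and 344 TPM, Cenpa, the centromeric H3, at 97.7 and 94.5 TPM, and H2afy, a macroH2A gene, at 86.7 and 45.5 TPM. H1fx and H2afb1 had 0 counts in both libraries. Clustered genes supplied 77.8% of the summed TPM of H1 genes in replicate 1 and 73.1% in replicate 2, 34.0% and 45.3% of H2A, and 2.15% and 3.10% of H3. Clustered genes were thus the larger part for H1 and the smaller part for H3 in both libraries.

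Genes known to act on histone mRNA were described in the same way, with no test against other genes. Of 17 measured processing genes 15 were at 1 TPM in both libraries, with a median of 5.90 ± 0.354 TPM. Srrt was the highest at 89.4 and 65.1 TPM, followed by Fip1l1 at 26.8 and 24.9 TPM and Sympk, the scaffold of the cleavage complex, at 28.3 and 18.7 TPM. Slbp, the stem-loop binding protein gene, was at 12.9 and 9.84 TPM, and Zfp473, a zinc-finger protein of the U7 complex, was the lowest at 0.42 and 0.16 TPM. All 6 measured decay genes were at 1 TPM in both libraries, with a median of 13.0 ± 4.28 TPM, from the exonuclease gene Xrn1 at 33.4 and 23.7 TPM to Lsm1 at 1.66 and 1.20 TPM; Pnrc2 was at 24.3 and 15.6 TPM and Upf1 at 18.2 and 9.23 TPM. All 11 measured genes of histone transcription were too, with a median of 8.18 ± 0.0707 TPM. Among these, Nfya, which encodes a CCAAT-binding subunit, was at 63.3 and 38.2 TPM, Ccnt1 at 29.2 and 23.5 TPM, Hinfp, an activator of H4 genes, at 12.7 and 9.41 TPM and E2f1 at 4.50 and 3.60 TPM.

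Among the lists of replacement, processing, decay, transcription and S phase genes, the S phase genes had the lowest median. The median of the clustered histone genes, 1.335 ± 0.191 TPM, lay between those of all coding genes and of S phase genes. These were 0.56 ± 0.0849 TPM for coding genes and 2.23 ± 0.389 TPM for the 20 S phase genes. Of the S phase genes, 16 were at 1 TPM in both libraries. Pcna, the DNA polymerase clamp, was the highest at 31.3 and 24.7 TPM, followed by Mki67 at 8.14 and 5.12 TPM and Mcm6, a helicase subunit, at 4.61 and 5.63 TPM. Cdc6, a licensing factor, was the lowest at 0.27 and 0.31 TPM. Between the libraries the S phase genes had a median log2 ratio of 0.27, with 16 of 20 above 0 and none called apart. No share of cells in S phase was measured.

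**Figure D4:**
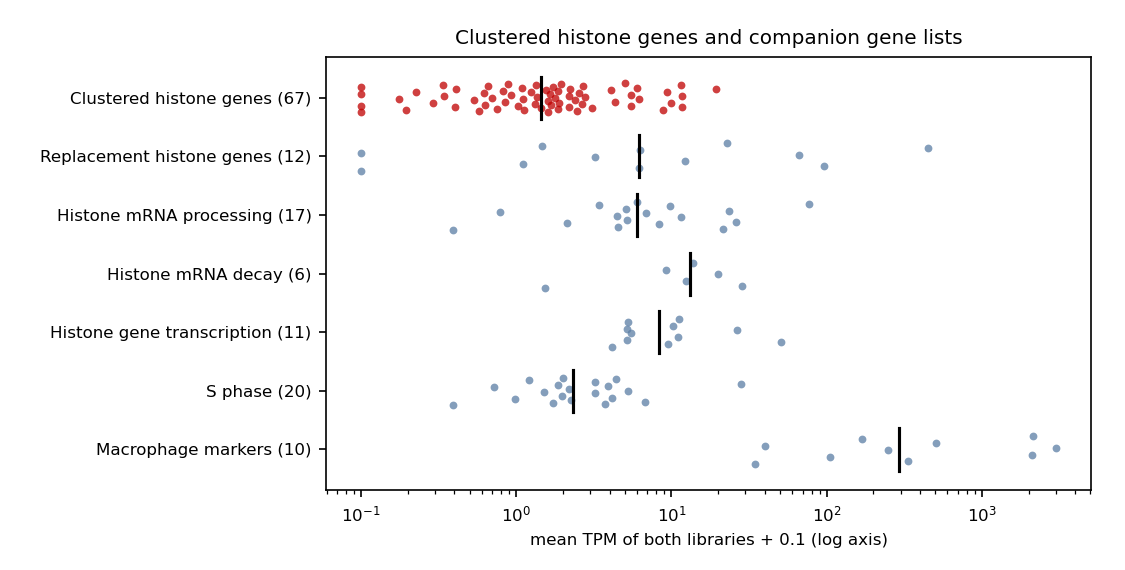
Mean TPM of both libraries for each gene of the clustered histone genes (red) and of 6 companion lists (blue), on a log axis with 0.1 TPM added. Black lines mark each list's median, taken in each library and averaged: 1.335 TPM for clustered histone genes, 2.23 TPM for S phase genes and 6.12 TPM for replacement histone genes.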

How the data were processed

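Total RNA-seq of the nucleoplasmic fraction was analysed in 1 group of 2 libraries. Each was quantified alone by the authors, with mm10 and GENCODE M21 per the deposited notes; versions, strand setting and filters were not found in these sources. The first deposited quantification has the columns of RSEM, per the file headers: expected counts, TPM (also as a posterior mean) and FPKM, by gene and by transcript. Per the file headers, the second deposited quantification has the columns of kallisto, with estimated counts and TPM for each transcript.

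Expected counts were rounded, and entries that name no mouse gene (0.823% and 0.207% of counts) were left out of totals. Ratios used TMM factors (edgeR 4.0.16, with DESeq2 1.42.0 size factors as an alternative) and exact 95% binomial intervals. The intervals were run on simulated counts with counting error alone. They are built for that setting, which leaves out how reads were divided between similar genes. A 0 allows up to 3 counts, which is 0.165 and 0.161 CPM in replicates 1 and 2. Stem-loops, words and motifs were found in Python 3.11.15.

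The named genes were the 3 highest and the lowest with a count of each type, Hist2, Hist3 and Hist4 genes at 1 TPM or more, the 10 largest replicate ratios in each direction and the 5 largest differences between quantifications in each direction, and the 3 highest and the lowest of companion lists. Members, lists and rules were chosen with earlier results of these data known. Other genes are named as examples or for their known role. Listed genes with no matching symbol were Ars2, Zcchc6, Zcchc11 and Mizf. Alternatives covered the unit, thresholds, scaling, the second quantification and leaving out each library.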

Additional observations from a re-analysis of the deposited data

Results flagged for a closer look

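Signal appeared in 1 gene outside the members. Hist3h2bb-ps, the H2B pseudogene of the Hist3 cluster, has no protein-coding transcript and so was not a member. The second quantification gave it 5 and 4 estimated counts in replicates 1 and 2, which is over the limit of 3 set by a count of 0, while the first gave it 0 and 1. It is the gene that shares the most 31-base words with Hist3h2ba, 32.9% of that gene's words, and Hist3h2ba had 10 and 7 estimated counts in the same table.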

How the results depend on the processing

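No paired analysis was possible because both libraries belong to 1 group. The share of gene counts on the members was 0.0137% to 0.0173% with either library left out. Chosen after seeing the data, here and for the long-transcript share, leaving out Hist3h2a gave 0.0111% and leaving out members that overlap a gene on the same strand 0.00958%. The count at 1 TPM in both libraries, 37 genes, was 18 with a minimum of 2 TPM and 18 by the second quantification, and 39 to 44 with 1 library alone. Their median TPM was 0.822 by the second quantification, 1.655 for members with a count in both libraries and 1.20 to 1.47 by library. The median log2 replicate ratio of 0.28 was −0.10 on TPM, the only reversal, 0.19 on library totals, 0.14 with no minimum and 0.10 by the second quantification, whereas all genes were at −0.35 on TPM and −0.10 on library totals. Of the 6 members higher in replicate 2, the count was 2 on TPM ratios and 3 at a mean scaled count of 50. The 1 lower became 3 on library totals, 6 on TPM ratios, 2 with no minimum and 3 by the second quantification. Type shares in TPM were 10.8% for H1, 8.32% for H3 and 34.7% for H4; by the second quantification they were 18.4% for H2B, 4.74% for H3 and 20.6% for H4. By library they ranged from 20.1% to 24.6% for H1, 32.4% to 41.2% for H2A, 14.1% to 16.1% for H2B, 6.84% to 6.87% for H3 and 17.8% to 20.0% for H4. The long-transcript share was 51.4% in TPM, 93.0% with a limit of 20 bases, 79.0% with 200 bases, 77.3% without Hist3h2a, 76.1% without the overlapping members and 82.1% to 84.9% by library. Among 35 named genes, TPM moved by more than the spread between libraries in 25 by the second quantification, in 6 on FPKM and in 2 on posterior-mean TPM. Depth limits the low members most: 14 had 3 or fewer counts in replicate 1 and 16 in replicate 2.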
